A study of Homo sapiens with 12 samples.

Results

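H/ACA small nucleolar RNAs (snoRNAs) are short noncoding RNAs that guide the conversion of uridine to pseudouridine in rRNA and spliceosomal RNA. The genes named SNORA were read in the gene tables of 2 human T-cell acute lymphoblastic leukemia (T-ALL) lines, HPB-ALL and KOPTK1. Members were the gene identifiers whose symbol is SNORA followed by a number and at most 1 letter. Of 58288 genes in each table, 388 had such a symbol, and the row with the highest average level was kept for each name, which gave 111 H/ACA snoRNA genes. The SCARNA genes, which act in Cajal bodies, were left out.

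In each line, cells were infected with a lentivirus carrying the pLKO.1 vector with an shRNA, and 3 libraries came from cells with an shRNA to SHQ1 and 3 from cells with a control shRNA to GFP, 12 libraries in all. All 4 groups therefore carry an shRNA vector and were kept with 2 μg/ml puromycin for 48 h by the labels. Total RNA was depleted of rRNA before sequencing. The levels used here are the authors' averages over the 6 libraries of a line, so that each value mixes SHQ1-depleted and control cells. The columns of single libraries carry numbers that match no sample label. For this reason, no value of a single library, no spread between replicates and no comparison of SHQ1 shRNA with control shRNA is given, and the library depth is unknown here.

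An H/ACA snoRNA folds into a pair of hairpins joined by a hinge that holds the H box (ANANNA, where N is any base), and an ACA box lies 3 bases before its 3′ end. In human cells it is usually cut out of an intron of another gene, its host. The RNA is bound by dyskerin (DKC1), NHP2, NOP10 and GAR1, and SHQ1 is the chaperone that holds newly made dyskerin before the particle forms.

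The genes of this pathway were read first. Among the core proteins, the average level per kilobase of exon, scaled by library size (mean RPKM), was 46.6 in HPB-ALL and 38.6 in KOPTK1 for DKC1. NHP2 was at 80.9 and 73.2 RPKM, NOP10 at 70.7 and 58.9, and GAR1 at 30.2 and 27.7. Of the assembly factors, SHQ1 had a mean RPKM of 59.5 in HPB-ALL and 43.3 in KOPTK1 over both shRNA groups. NAF1, which takes the place of GAR1 in the precursor particle, was the lowest of the 4 assembly factors, at 14.6 RPKM in HPB-ALL and 14.7 in KOPTK1. The helicases RUVBL1 and RUVBL2, which release SHQ1, were at 33.1 and 85.0 RPKM in HPB-ALL and at 35.9 and 53.7 in KOPTK1. Of 4 genes that act on the 3′ end of small RNAs, PARN, TENT4B, EXOSC10 and TOE1, all were above 10 RPKM in both lines. Of 14 T-cell genes with a row, 13 were above 10 RPKM in each line, whereas 0 of 4 myeloid genes reached 1. The B-cell list held 1 gene above 10, CD79A, at 43.3 RPKM in HPB-ALL and 16.1 in KOPTK1, while MS4A1 and PAX5 were below 0.1 RPKM in both. Of 3 erythroid genes, HBA1 was at 2.12 and 1.83 RPKM and the others were below 1.

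Most of the H/ACA snoRNA genes had reads above the low end of the tables. In HPB-ALL, 100 of 111 had a mean RPKM of at least 1 and 52 of at least 10, and in KOPTK1, 102 had at least 1 and 62 at least 10. The members ranged from 0.290 to 182 RPKM in HPB-ALL, with a median of 9.61, and from 0.287 to 191 in KOPTK1, with a median of 11.1. The lowest value that most silent genes share in each table corresponds to 0.364 RPKM in HPB-ALL and 0.499 in KOPTK1 for a gene of 134 bases, the median length of the members. This value was held by 5 members in HPB-ALL and by 3 in KOPTK1. The member with the lowest RPKM, SNORA59B, is not among them, since it is annotated with 701 bases and its RPKM is low for this length. Of all genes in the tables, 39.9% reached 1 RPKM in HPB-ALL and 42.3% in KOPTK1. These shares are not like for like, since for 54 members the row kept was the highest of several with that name. Of the 277 rows not kept, 100 reached 1 RPKM in HPB-ALL and 104 in KOPTK1. The 151 box C/D snoRNA genes with a like name (SNORD), which guide methylation of ribose, had medians of 12.6 and 14.1 RPKM. The 20 SCARNA genes had medians of 10.3 and 10.6.

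The highest H/ACA snoRNA gene in both lines was SNORA32, at 182 RPKM in HPB-ALL and 191 in KOPTK1. It lies on the minus strand of chromosome 11 beside SNORA25, SNORA1, SNORA8, SNORA18 and SNORA40, and these 6 genes fall within 4724 bases (chr11:93730513-93735236, GRCh38). SNORA40 followed at 91.1 and 83.0 RPKM and SNORA25 at 73.6 and 70.4, in that order in both tables. SNORA18 was at 52.0 RPKM in HPB-ALL and 43.9 in KOPTK1, SNORA8 at 31.0 and 34.9, and SNORA1 at 20.7 and 23.2. Within this group, the highest gene was 8.81 times the lowest in HPB-ALL and 8.24 times in KOPTK1, and the 6 genes had the same order in both. Together they held 27.9% of the summed RPKM of all members in HPB-ALL and 25.8% in KOPTK1. The sequences of 5 of them are shown because the group includes the members with the highest RPKM and yet its sequences differ. These 5 have 46.8% to 54.0% identity between pairs over the whole length. Capitals mark the ANANNA match nearest to the middle and, where it lies 3 bases before the 3′ end, the ACA.
SNORA32: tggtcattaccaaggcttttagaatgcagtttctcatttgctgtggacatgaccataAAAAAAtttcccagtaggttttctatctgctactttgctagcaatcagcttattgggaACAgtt
SNORA25: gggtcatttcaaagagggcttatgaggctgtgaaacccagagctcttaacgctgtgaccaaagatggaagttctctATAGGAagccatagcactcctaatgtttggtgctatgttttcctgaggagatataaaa
SNORA8: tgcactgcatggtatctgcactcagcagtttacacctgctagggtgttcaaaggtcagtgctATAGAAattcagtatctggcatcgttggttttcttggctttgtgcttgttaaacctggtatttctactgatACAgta
SNORA1: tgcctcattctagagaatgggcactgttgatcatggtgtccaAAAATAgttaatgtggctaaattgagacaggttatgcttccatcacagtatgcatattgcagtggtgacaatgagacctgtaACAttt
SNORA40: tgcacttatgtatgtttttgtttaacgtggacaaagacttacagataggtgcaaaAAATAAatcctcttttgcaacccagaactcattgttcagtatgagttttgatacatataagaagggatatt

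Of these 5, SNORA32, SNORA8 and SNORA1 have the ACA 3 bases before the end, and SNORA25 and SNORA40 have other letters there. The gene row of TAF1D, which codes for a subunit of the RNA polymerase I factor SL1, covers chr11:93735567-93741945 in the deposited tables and ends short of all 6. In RefSeq (GRCh38.p14), TAF1D extends to chr11:93730194-93741495 and holds all 6. TAF1D itself was at 49.2 RPKM in HPB-ALL and 47.3 in KOPTK1. SNORA32 was thus 3.70 times as high per length as TAF1D in HPB-ALL and 4.04 times in KOPTK1, while SNORA1 was at 0.421 and 0.490 of it. The levels did not follow position within the RefSeq gene, since SNORA40, 6259 bases after the RefSeq start, was second and SNORA32, 10396 bases after it, was first.

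**Figure D1:**
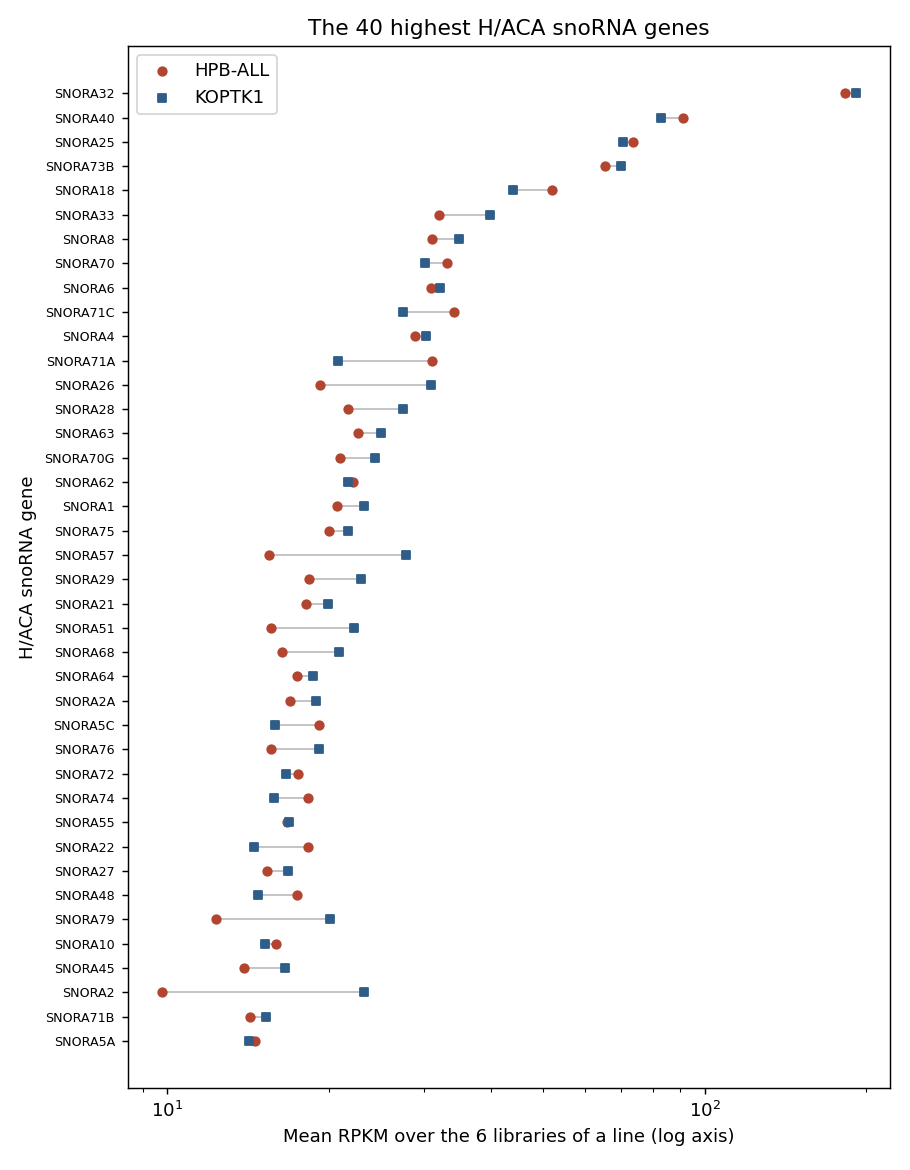
Mean RPKM (log axis) of the 40 H/ACA snoRNA genes with the highest level over both lines, with circles for HPB-ALL and squares for KOPTK1; each point is the authors' average over 6 libraries, with no error. SNORA32 stands at 182 and 191 RPKM, followed by SNORA40, SNORA25 and SNORA73B, and the widest gap between lines among those shown is that of SNORA2.

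The next gene was SNORA73B, also known as U17 or E1, which is known for its part in the processing of 18S rRNA. SNORA73B (chr1:28508559-28508762, plus strand) was at 65.2 RPKM in HPB-ALL and 70.0 in KOPTK1. It lies in the span of both RCC1 and the noncoding gene SNHG3, of which RCC1, a nuclear exchange factor for the GTPase Ran, was the higher at 41.0 and 40.8 RPKM. At 204 bases it is longer than most members, the shortest of which has 108 bases and the median one 134. Its sequence is shown for this length and for its level.
SNORA73B: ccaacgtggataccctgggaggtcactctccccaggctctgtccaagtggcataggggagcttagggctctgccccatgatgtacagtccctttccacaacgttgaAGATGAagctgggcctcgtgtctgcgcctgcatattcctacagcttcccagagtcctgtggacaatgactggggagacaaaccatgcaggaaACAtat

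Genes of the small ribosomal subunit hosted several of the following members. SNORA33, in RPS12, had 32.1 RPKM in HPB-ALL and 39.9 in KOPTK1. RPSA hosts SNORA6 (chr3:39408389-39408539), at 30.9 and 32.2 RPKM, and SNORA62 (chr3:39411054-39411206), or E2, at 22.1 and 21.7. Their sequences are 70.6% identical over the whole length. RPS2 hosts SNORA64 at 17.4 and 18.6 RPKM and SNORA10 at 15.9 and 15.2. The host RPSA was at 372 RPKM in HPB-ALL and 380 in KOPTK1, and RPS2 at 557 and 593. SNORA6 and SNORA62 are shown as a pair of the same host with related sequences.
SNORA6: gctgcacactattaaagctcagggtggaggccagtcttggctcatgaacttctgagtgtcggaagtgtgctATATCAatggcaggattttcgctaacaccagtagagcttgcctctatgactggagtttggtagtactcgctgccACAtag
SNORA62: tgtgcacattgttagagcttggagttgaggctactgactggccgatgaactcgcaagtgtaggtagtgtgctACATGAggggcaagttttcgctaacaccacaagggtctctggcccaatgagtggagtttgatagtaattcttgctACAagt

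Of the genes of the large subunit, RPL10 hosts SNORA70 (U70), at 33.1 RPKM in HPB-ALL and 30.1 in KOPTK1. RPL23 hosts SNORA21, at 18.1 and 19.9 RPKM. Lower levels were found for SNORA66 in RPL5 (8.51 and 11.1 RPKM), SNORA52 in RPLP2 (8.29 and 7.69) and SNORA69 in RPL39 (4.30 and 3.93). Among translation factor genes, EIF4A2 hosts SNORA4, SNORA63 (E3) and SNORA81. SNORA4 was at 28.9 RPKM in HPB-ALL and 30.3 in KOPTK1, SNORA63 at 22.7 and 24.97, and SNORA81 at 13.2 and 13.96. EIF5 hosts SNORA28, at 21.7 and 27.4 RPKM. Nucleolin (NCL), a main protein of the nucleolus, hosts SNORA75 (U23), at 19.98 and 21.7 RPKM.

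A host in the tables, taken as a gene on the same strand whose span holds the whole snoRNA gene, was found for 93 of 111 members, in 77 host genes. The snoRNA gene was outside the exons of the host in 89 of the 93 and partly inside in 1, SNORA3 in RPL27A. It was wholly inside in 3, namely SNORA7A in RPL32, SNORA31 in TPT1 and SNORA56 in DKC1. For these 4, reads of the spliced host fall on the snoRNA gene, and the sources cannot be told apart. The median ratio of snoRNA RPKM to host RPKM was 0.242 in HPB-ALL and 0.246 in KOPTK1. How well RNAs as short as the members were recovered in these libraries is not known here. The ratio is thus one of reads per length and not of molecules. Reads of unspliced host RNA also fall on an intronic snoRNA gene, and mature snoRNA and host intron cannot be told apart in these tables.

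The level of the host differed between host classes more than that of the snoRNA. The 16 members in ribosomal protein genes had a median of 15.6 RPKM in HPB-ALL and 16.8 in KOPTK1, with hosts at medians of 193 and 214. The 6 members in translation factor genes had medians of 17.6 and 20.1 RPKM, with hosts at 111 and 124. The 61 members in other protein-coding genes had medians of 7.23 and 7.48 RPKM, with hosts at 27.9 and 27.3. The median ratio of snoRNA to host was 0.0795 and 0.0789 for ribosomal protein genes, and 0.258 and 0.308 for other protein-coding genes. The 7 members in long noncoding genes had medians of 14.3 and 15.3 RPKM and ratios of 0.470 and 0.758. These classes share hosts among members and were not tested. They follow the name of the host taken. SNORA48, in the spans of both SENP3-EIF4A1 and EIF4A1, was thus counted under other protein-coding genes and not under translation factor genes. The lowest ratio in both lines was that of SNORA69 in RPL39 (0.0233 in HPB-ALL and 0.0214 in KOPTK1). SNORA66 in RPL5 (0.0237 and 0.0302) and SNORA10 in RPS2 (0.0286 and 0.0257) were the next lowest, in this order in HPB-ALL and with SNORA10 lower in KOPTK1. The rank correlation of snoRNA and host RPKM (Spearman's rho) was 0.494 across 85 members with at least 1 RPKM in HPB-ALL and 0.472 across 87 in KOPTK1. These points share libraries and in part hosts.

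Some members were higher per length than their host. In HPB-ALL this held for 9 of 93 members and in KOPTK1 for 12. SNORA57 (chr11:62665422-62665570), in CSKMT, was at 2.05 times the host in HPB-ALL and at 3.29 times in KOPTK1. SNORA73B was at 1.59 and 1.72 times RCC1, SNORA16 at 1.54 and 2.00 times N4BP2L1, and SNORA71C at 1.06 and 1.08 times SNHG17. The row named SNORA16 lies at no RefSeq SNORA gene. SNORA13 was at 1.23 and 1.08 times EPB41L4A-AS1. SNORA79 was at 0.984 of CCNB1IP1 in HPB-ALL and at 1.32 times in KOPTK1. The remaining ones, SNORA59B, SNORA70F, SNORA35, SNORA14, SNORA70E and SNORA11C, had at most 1.40 RPKM, a low level at which a ratio says little. SNORA59B is annotated with 701 bases. Its average log2 CPM, -2.30 in HPB-ALL and -2.32 in KOPTK1, was above the value shared by silent genes, -4.36 and -3.90.

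Genes that share a host differed in level. Apart from the TAF1D region, 11 hosts held 2 or more members, and the highest member was the same in both lines in each of the 11. In KANSL2, a subunit gene of a histone acetyltransferase complex, SNORA2A was at 16.9 RPKM in HPB-ALL and 18.9 in KOPTK1, SNORA2B at 12.3 and 15.0, and SNORA34, at the RefSeq position of SNORA2C, at 4.61 and 4.88. In TBRG4, SNORA5C was at 19.2 and 15.8 RPKM, SNORA5A at 14.6 and 14.2, and SNORA5B at 6.68 and 4.31. In the pseudogene CCT6P1, SNORA22 was 3.85 times SNORA15 in HPB-ALL and 3.57 times in KOPTK1. Another SNORA15 row is 100% identical to this SNORA15, and another SNORA22 row is 98.5% identical to this SNORA22. Reads of both members can thus be shared with these rows or lost. In the spans of both MATR3 and SNHG4 lie SNORA74A (U19) and the row named SNORA74, at the RefSeq position of SNORA74D. MATR3 had the higher average and was taken as the host. The SNORA74 row was at 18.2 and 15.8 RPKM and SNORA74A at 6.67 and 5.17. DKC1, the gene of dyskerin itself, hosts SNORA36A, at 3.02 and 2.47 RPKM, and SNORA56, at 3.58 and 2.83, both among the lower members. Without a spread between libraries, whether neighbours in these orders differ beyond error is not known.

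**Figure D2:**
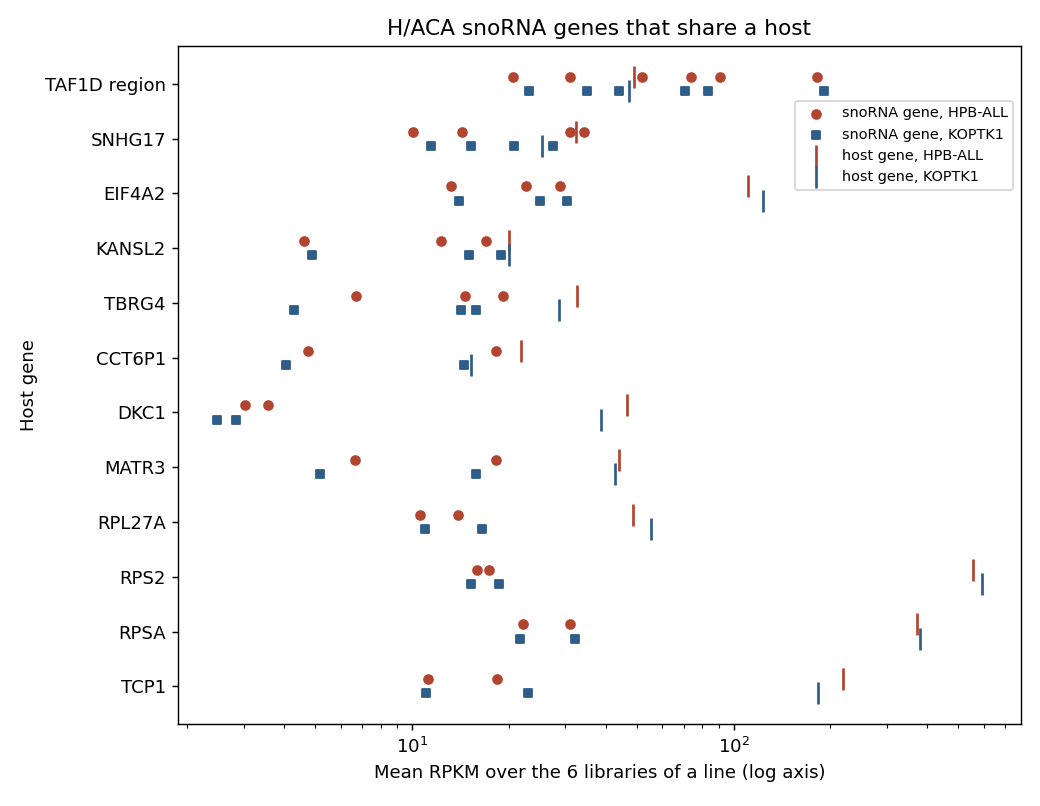
Mean RPKM (log axis) of H/ACA snoRNA genes grouped by shared host, with circles for HPB-ALL, squares for KOPTK1 and upright bars for the host gene in the same colours; the TAF1D region is grouped by its RefSeq span. The members of RPS2 lie at 15.2 to 18.6 RPKM beside a host at 557 and 593, whereas 4 of the 6 in the TAF1D region lie above TAF1D in HPB-ALL.

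SNHG17, a noncoding host, holds SNORA71A, SNORA71B, SNORA71C and SNORA71D (U71). SNORA71C was at 34.2 RPKM in HPB-ALL and 27.4 in KOPTK1 and SNORA71A at 31.1 and 20.7. SNORA71B was at 14.3 and 15.3 RPKM and SNORA71D at 10.1 and 11.4. SNORA71A and SNORA71C share 82.8% of their letters, SNORA71A and SNORA71D 82.1%, and SNORA71C and SNORA71D 85.8%. SNORA71B is annotated with 272 bases and had 44.5% to 46.0% identity with SNORA71A, SNORA71C and SNORA71D. Identity is taken over the longer sequence, so the difference in length alone keeps these values low. In these 3 sequences of 134 bases, the letters ACA end the annotated gene, so that the 3 bases that follow an ACA box are not part of it. They are shown as copies in 1 host that differ in level, with the ANANNA match nearest to the middle in capitals. SNORA71C has 2 matches in its central part. The one marked starts at base 71, and the other at base 58, where the marked match of SNORA71A and SNORA71D starts.
SNORA71A: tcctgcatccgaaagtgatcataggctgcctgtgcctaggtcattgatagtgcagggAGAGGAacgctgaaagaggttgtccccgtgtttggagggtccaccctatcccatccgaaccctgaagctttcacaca
SNORA71C: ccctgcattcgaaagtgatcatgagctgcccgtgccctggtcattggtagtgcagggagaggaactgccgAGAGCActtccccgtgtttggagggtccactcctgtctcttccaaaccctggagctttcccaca
SNORA71D: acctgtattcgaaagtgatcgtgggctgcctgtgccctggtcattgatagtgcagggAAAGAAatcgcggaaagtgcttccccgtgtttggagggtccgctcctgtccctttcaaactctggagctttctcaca

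The boxes were searched in the transcript sequences of all 111 members (GENCODE release 44). The letters ACA stood 3 bases before the 3′ end in 81 of 111 members (73.0%), and in 5 of 151 SNORD genes (3.31%). With any base in the middle (ANA), this became 92 of 111 (82.9%) and 14 of 151 (9.27%). ACA was within the last 10 bases in 98 of 111. ANANNA was found in the central part of the sequence in 104 of 111 members (93.7%) and in 53 of 151 SNORD genes (35.1%). Both ANANNA and the ACA 3 bases before the end were found in 77 members and in 0 SNORD genes. The central part is shorter in SNORD genes, with a median length of 78 bases against 134 in members. ANANNA thus had fewer places to match in them. The 81 members with the ACA had a median of 9.61 RPKM in HPB-ALL and 10.98 in KOPTK1, and the 30 without it 9.33 and 12.2. Among the 277 further rows with a member's name, which are other copies in the genome, 157 (56.7%) had the ACA. Their median level was 0.524 RPKM in HPB-ALL and 0.697 in KOPTK1, near the lowest value of the tables. Since the highest row of each name was taken as the member, a lower level of these rows is set by the rule. Not all were low, as 100 of the 277 had at least 1 RPKM in HPB-ALL and 104 in KOPTK1. A second SNORA63 row, in EIF4A2, was at 19.95 and 20.6 RPKM.

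Copies limit how single genes can be read. Of the 111 members, 57 had a name with 1 row and 54 had several rows, as many as 28 for SNORA70. For 10 members, another SNORA row had at least 95% identical letters, so that reads can be shared or lost between them. SNORA7A and SNORA7B agree at 98.6% and were at 11.5 and 6.59 RPKM in HPB-ALL and at 12.3 and 7.12 in KOPTK1. SNORA10 agrees at 98.5% with a second SNORA64 row. SNORA36A and SNORA36C agree at 97.0%, and SNORA36C was at 2.06 and 2.45 RPKM. SNORA11D and SNORA11E are identical. SNORA11D was at 0.921 RPKM in HPB-ALL and 1.31 in KOPTK1, and SNORA11E was at 0.381 and 0.566. The lowest members with more than 1 RPKM in both lines were SNORA70E (1.02 and 1.40), SNORA14A (1.51 and 1.90) and SNORA36C.

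Names also limit the list. Of the 111 members, 93 lay at the position of a SNORA gene in RefSeq (GRCh38.p14), 80 of them under the same name, and 18 lay at none. A further 16 RefSeq SNORA genes have a row in the tables whose identifier had no symbol, so that they are outside the rule. For 10 of these 16 the host taken is named SNHG, and 14 of the 16 had at least 1 RPKM in each line. SNORA73A, not among the 10, lies in the spans of both RCC1, taken as its host, and SNHG3. SNORA24 in SNHG8 was at 35.9 RPKM in HPB-ALL and 49.2 in KOPTK1, and SNORA73A, the second U17 gene, at 30.9 and 33.3. SNORA61 was at 27.7 and 46.7 RPKM, SNORA44 at 16.9 and 26.5 and SNORA16A at 11.1 and 16.6, all within SNHG12. The member row that carries the name SNORA24 is another copy, in PARP16, at 4.22 and 4.51 RPKM, and that of SNORA44 is a copy at 0.527 and 0.877. The member rows named SNORA16, SNORA67, SNORA17 and SNORA72 lie at no RefSeq SNORA gene. Of the 16, SNORA67 in SENP3-EIF4A1 was at 19.3 RPKM in HPB-ALL and 15.3 in KOPTK1. In SNHG7, SNORA17A was at 8.11 and 8.94 RPKM and SNORA17B at 4.69 and 5.58. A row in RPL30, at the RefSeq position of SNORA72, was at 4.82 and 5.84 RPKM. SNORA50 has a second row, 2 bases longer, with average log2 CPM values of -0.03 and 0.66 in both rows. Reads on this position were thus counted for both rows.

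The levels in the lines were set side by side from tables normalized separately, without a test. Across the 102 members with at least 1 RPKM in either line, the rank correlation between the lines was 0.949 (Spearman's rho). Average log2 CPM was higher in the HPB-ALL table for 35 and lower for 67, with a median difference (HPB-ALL minus KOPTK1) of -0.11. Over all 25479 genes with at least 1 RPKM in either line the median difference was -0.05. The difference was over 0.5 in either direction for 17 of 102 members (16.7%) and for 32.5% of all these genes. It was over 1 for 1 member (0.980%) and for 11.9% of all these genes.

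**Figure D3:**
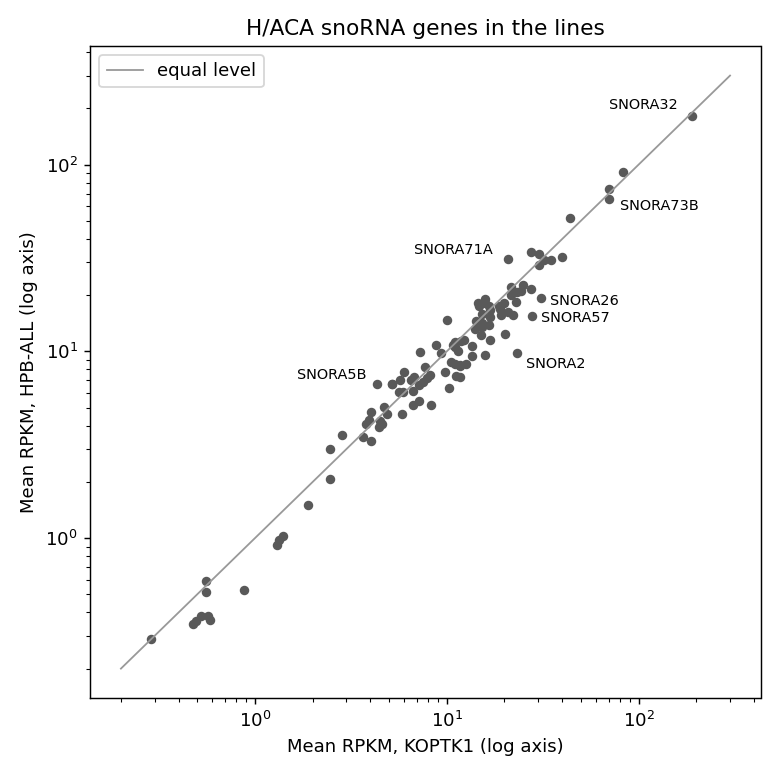
Mean RPKM of 111 H/ACA snoRNA genes in HPB-ALL against KOPTK1 (both log axes); the line marks equal levels and each point is an average over 6 libraries of each line. Most points lie near the line, with SNORA2 at 9.79 RPKM in HPB-ALL and 23.2 in KOPTK1 the farthest below it.

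The largest difference was that of SNORA2 (chr2:10155072-10155206, minus strand), at 9.79 RPKM in HPB-ALL and 23.2 in KOPTK1, a log2 difference of -1.25. This row lies at no RefSeq SNORA gene, has no host on its strand and is overlapped on the plus strand by the spans of 2 genes without a symbol. ENSG00000163009 was at 2.29 RPKM in HPB-ALL and 12.1 in KOPTK1 (log2 difference -2.40), and ENSG00000284681 was at 92.6 and 83.4 (0.15). The library kit named in the methods does not mark strand, so that reads of these genes and of SNORA2 cannot be told apart. SNORA2A in KANSL2, with 87.4% identical letters, was at 16.9 and 18.9 RPKM, a log2 difference of -0.16. The sequences of both are shown for this contrast.
SNORA2: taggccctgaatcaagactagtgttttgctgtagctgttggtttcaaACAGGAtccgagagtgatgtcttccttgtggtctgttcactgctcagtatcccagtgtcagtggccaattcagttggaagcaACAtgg
SNORA2A: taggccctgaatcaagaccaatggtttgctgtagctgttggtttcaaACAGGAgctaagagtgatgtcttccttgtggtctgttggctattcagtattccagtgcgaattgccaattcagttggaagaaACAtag

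SNORA57 was at 15.4 RPKM in HPB-ALL and 27.9 in KOPTK1 (log2 difference -0.85), while its host CSKMT differed by -0.17. LBHD1, on the opposite strand, was at 17.8 and 12.4 RPKM (0.52). SNORA26, in the noncoding gene DANCR (chr4:52713249-52713370), was at 19.3 and 30.9 RPKM (-0.68), while DANCR was at 41.0 and 40.8 (0.01). SNORA16 in N4BP2L1 (9.61 and 15.8 RPKM, -0.72), SNORA79 in CCNB1IP1 (12.3 and 20.1, -0.70) and SNORA50 in CNOT1 (7.29 and 11.8, -0.69) were lower in HPB-ALL as well. Their hosts differed by -0.34, -0.28 and 0.06. The row named SNORA16 lies at no RefSeq SNORA gene. SNORA57 and SNORA26 are shown as the members with the largest differences among those with at least 15 RPKM in both lines.
SNORA57: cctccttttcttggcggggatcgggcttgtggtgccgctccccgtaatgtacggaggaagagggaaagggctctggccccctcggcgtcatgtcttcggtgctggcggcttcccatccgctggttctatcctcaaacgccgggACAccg
SNORA26: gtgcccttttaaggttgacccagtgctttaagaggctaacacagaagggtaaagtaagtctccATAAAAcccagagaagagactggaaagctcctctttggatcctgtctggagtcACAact

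In the other direction, SNORA5B in TBRG4 was at 6.68 RPKM in HPB-ALL and 4.31 in KOPTK1 (log2 difference 0.63), whereas SNORA5A of the same host differed by 0.04 and TBRG4 by 0.19. SNORA71A differed by 0.58 and SNORA71C by 0.32, whereas SNORA71B was at -0.10, SNORA71D at -0.18 and the host SNHG17 at 0.35. SNORA11, at the RefSeq position of SNORA11F and opposite to NUDT13, was at 14.6 and 10.02 RPKM (0.55), and NUDT13 at 7.94 and 8.79 (-0.15). SNORA14B in TOMM20 was at 9.97 and 7.23 RPKM (0.46), with TOMM20 at 0.06. SNORA80 in URB1 was at 6.73 and 5.2004 RPKM (0.37), with URB1 at 0.34.

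Over the 87 members with a host and at least 1 RPKM in either line, snoRNA and host lay on the same side of 0 in 59. The rank correlation of the differences was 0.473 (Spearman's rho), with shared libraries and hosts. The hosts were centred on 0.00 and 5 of 87 differed by over 0.5. Without values of single libraries, how far these differences exceed the spread between replicates is not known.

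**Figure D4:**
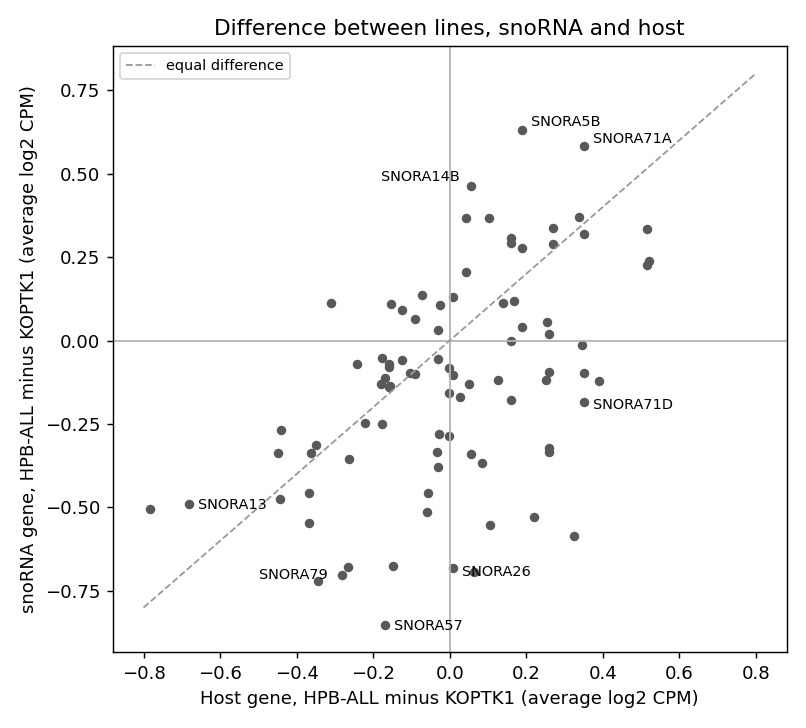
Difference in average log2 CPM between HPB-ALL and KOPTK1 for 87 H/ACA snoRNA genes against that of their host genes; the dashed line marks equal differences. SNORA26 and SNORA57 lie low, at -0.68 and -0.85, with hosts at 0.01 and -0.17, and SNORA5B lies high, at 0.63, with its host at 0.19.

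Of the 18 members without a host by the tables' spans, 6 are in the TAF1D region and 11 have only a gene on the opposite strand. SNORA70G, opposite to RAP1B, was at 20.9 RPKM in HPB-ALL and 24.4 in KOPTK1, and RAP1B at 15.5 and 13.98. The row named SNORA72, which is opposite to ECT2 and at no RefSeq SNORA gene, was at 17.5 and 16.7 RPKM, and ECT2 at 38.9 and 28.0. SNORA76, opposite to ERBIN, was at 15.6 and 19.2 RPKM, and ERBIN at 35.2 and 38.6. The rows named SNORA67, SNORA17, SNORA43 and SNORA36 had between 4.07 and 7.14 RPKM, and those named SNORA5 and SNORA44 were below 1 in both lines. SNORA70G lies at the RefSeq gene of that name. The other rows named so far lie at no RefSeq SNORA gene, so their levels are not those of the RefSeq genes of these names. SNORA71, at 0.364 RPKM in HPB-ALL and 0.582 in KOPTK1, had neither. None of these 11 overlaps an exon of its opposite gene (for SNORA2, of the higher one), but reads of its introns would be counted without strand and cannot be told apart from snoRNA reads.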

How the data were processed

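RNA-Seq libraries came from 2 established human T-ALL cell lines, with 3 control and 3 SHQ1 shRNA libraries per line. Per the submitters' processing notes, Trimmomatic 0.36, STAR 2.5.4b, Picard 2.18.7, featureCounts 1.6.2 and edgeR 3.22.3 were used with hg38. The paper's methods name the TruSeq RNA Library Prep Kit v2, which does not mark strand. The authors deposited 1 table per line, each normalized separately, with the average log2 CPM over its 6 libraries, exon coordinates and summed exon length. The tables also hold the authors' own comparison (log2 fold change, F statistic, p-value and FDR), which was not used. Headings of the 12 per-library columns are bare numbers found in no sample's labels. These columns were left unused, so the tests planned between shRNA groups were not run.

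To obtain a mean RPKM, 2 was raised to the deposited average log2 CPM and divided by the length in kilobases. The lowest value shared by silent genes lies above 0 in each table, so low levels are overstated. A threshold of 1 RPKM was used. Symbols were matched by Ensembl identifier for 95.9% of the genes. Of several rows with 1 symbol, the one with the highest average over both tables was kept. A host was the gene on the same strand whose span holds the whole snoRNA gene, small RNA genes left out, and of several the one with the highest average. Of 18986 protein-coding genes compared with RefSeq GRCh38.p14, 99.97% overlapped. Sequences were taken by identifier from GENCODE release 44 transcripts (lifted to GRCh37), which had the table's length for 109 of 111 members, and coordinates are those of the tables (GRCh38). Identity is 100 minus the edit distance as a percentage of the longer sequence. The central part of a sequence, of 1 in 3 bases, was searched for ANANNA on the transcript strand only.

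The genes named were the 12 highest in each line, the 3 lowest above 1 RPKM in both, the 5 with the largest and the 5 with the smallest difference between lines, members sharing a host, near-identical copies and a list of pathway genes. Others were named after their values were seen: hosts of ribosomal protein and translation factor class, members without a host, and genes with unmatched identifiers. The members and lists were chosen with earlier results of these data known. Steps were tested on simulated data. Python 3.11.15, pandas 2.3.3 and scipy 1.17.1 were used. Alternatives were the sum of rows per symbol, thresholds of 0.5 and 5 RPKM, CPM without length, members of at least 100 bases, other hosts, names by RefSeq position and the row chosen within each line. The sequence of 1 member and the values of 1 host are not reported here.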

Additional observations from a re-analysis of the deposited data

How the results depend on the processing

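No paired analysis was possible because no column of single libraries could be matched to a sample. For the same reason, the planned pseudocounts, filters, centring, fits without 1 replicate and the mean of the per-library columns were not run. The number of members with at least 1 RPKM, 100 in HPB-ALL and 102 in KOPTK1, stayed within 1.5 times under each alternative run, from 68 and 74 at a CPM of at least 1 to 114 and 116 when genes named by RefSeq position, an alternative chosen after the data were seen, were added. The median level over members rose to 11.5 RPKM in HPB-ALL and 14.04 in KOPTK1 when the rows of 1 symbol were summed. Without the length term it was 1.35 and 1.51 CPM, which is another unit. With genes named by RefSeq position it was 11.1 RPKM in KOPTK1. The median ratio to the host was 0.230 in HPB-ALL and 0.215 in KOPTK1 with protein-coding hosts only, 0.230 and 0.238 for members with at least 1 RPKM, and 0.258 and 0.266 with RefSeq spans added for the TAF1D region, a choice made after the data were seen. These values differ in which rows, genes or hosts enter the median. The depth of the libraries is unknown here, so the counting error of low members is not given.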
